A study of Rattus norvegicus with 2 samples.

Results

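The genes described here are those through which cells sense glucose carbon and answer with transcription: the factor ChREBP (Mlxipl), its obligate partner Mlx, and 6 target genes, Txnip, Arrdc4, Klf10, Bhlhe40, Gpd1 and Pklr. They were chosen by gene symbol with no filter on signal, though with earlier results of these data known. All 8 genes were represented on the array, by 10 of its 15923 probe sets. Expression was read in A7r5, an established rat cell line of vascular smooth muscle taken from the embryonic aorta. The GLUT1 cells had been infected with an adenovirus that carries the human cDNA of the glucose transporter GLUT1, and the control cells with an empty adenovirus. In both groups the infection lasted 72 hours at a multiplicity of 10, with 100 particles per cell for a multiplicity of 1, in medium with 5.5 mM glucose. RNA from 3 days was pooled into 1 sample per group and read on 1 array per group, so no value below has a replicate and no test was possible.

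ChREBP and its close relative MondoA (Mlxip) are basic helix-loop-helix leucine zipper factors that are held inactive when glucose is low and are activated when glucose 6-phosphate accumulates. Each binds DNA as a dimer with Mlx, at carbohydrate response elements made of a pair of E-box-like elements with a short spacer. ChREBP is best known from liver and fat, where it drives glycolytic and lipogenic genes, and MondoA from muscle. Txnip, which binds and inhibits thioredoxin, and Arrdc4 are alpha-arrestins that restrain glucose uptake, and in many cell types their transcripts are among the most glucose-responsive. Whether raising the glucose transporter alters the transcripts of these sensors and targets is the question the arrays can address.

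RefSeq promoter windows of the rat assembly GRCr8, from 250 bases before to 50 bases after a gene start, were matched for 5 of the 8 members: Pklr, Arrdc4, Bhlhe40, Mlx and Mlxipl. The palindromic E-box CACGTG, which reads alike on both strands, lay in the windows of Arrdc4, Bhlhe40 and Mlx, and in 6.42% of all 33469 windows. The pair CACGNG and CNCGTG with 5 bases between them, also palindromic, lay in the window of Pklr and in 0.0329% of all windows. The windows of 3 targets are printed below without bases of the annotated gene, with the matches in capitals. They set the spaced pair of Pklr beside the CACGTG matches of Arrdc4 and Bhlhe40. In Bhlhe40 the match is followed, after 5 bases, by CATGTG. That is also an E-box-like string, but the searched pair does not admit it, so it stays in lower case. The windows run 5′ to 3′ along the gene. The Pklr window lies at chr2:176841014-176841263, plus strand, and its spaced pair begins at -168 from the start. That of Arrdc4 lies at chr1:131793439-131793675, minus strand, with its E-box at -177, and that of Bhlhe40 at chr4:143174200-143174449, plus strand, with its E-box at -220.
Pklr: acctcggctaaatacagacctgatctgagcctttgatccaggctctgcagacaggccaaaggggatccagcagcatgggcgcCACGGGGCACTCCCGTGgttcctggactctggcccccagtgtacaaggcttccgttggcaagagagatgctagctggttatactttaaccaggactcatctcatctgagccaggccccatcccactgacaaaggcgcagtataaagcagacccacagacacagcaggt
Arrdc4: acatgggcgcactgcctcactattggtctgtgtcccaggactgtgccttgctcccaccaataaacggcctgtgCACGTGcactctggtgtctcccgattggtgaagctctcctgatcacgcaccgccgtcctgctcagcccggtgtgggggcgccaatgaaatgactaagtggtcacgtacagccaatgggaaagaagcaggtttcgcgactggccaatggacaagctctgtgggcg
Bhlhe40: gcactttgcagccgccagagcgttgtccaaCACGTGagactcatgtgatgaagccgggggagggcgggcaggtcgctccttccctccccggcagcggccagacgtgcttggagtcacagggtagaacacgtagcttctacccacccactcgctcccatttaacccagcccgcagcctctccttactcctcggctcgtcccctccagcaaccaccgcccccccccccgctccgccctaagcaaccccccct
A match is a string of letters, and no binding was measured here. For Pklr, the element is the textbook glucose-responsive site of the liver pyruvate kinase promoter. Its match to the searched pair was therefore known beforehand and is not a result of the search.

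The first question was whether sensors and targets were expressed at all on both arrays. Mlx, Klf10 and Bhlhe40 were read clearly on both, and Gpd1 more faintly in 1 of its 2 probe sets, while Txnip, Arrdc4, Mlxipl and Pklr did not stand above genes that smooth muscle does not use on both arrays. No detection calls were used here, so the brightness of an unused probe set was taken from 43 probe sets of 39 tissue-restricted genes, such as albumin, insulin and the pituitary hormones. The limit was the 95th percentile of these probe sets, an intensity of 394.2 on the GLUT1 array and 458.5 on the control array. On both arrays 4 of the 8 members passed it, where 60.6% of all 10411 genes did, so the members' share lay near that of all genes. A probe set's brightness depends on its probes as well as on the transcript. A dim value is therefore a statement about detection and not a measure of absence. In pooled RNA, fewer cells that use a gene and less of its RNA per cell cannot be told apart.

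Of the sensor pair, the common partner was bright and ChREBP was not. Mlx had an intensity of 1929 on the GLUT1 array and 1897 on the control array, brighter than 80.0% of all probe sets on the GLUT1 array and 79.6% on the control array. Mlxipl, the gene of ChREBP, was read at 306 on the GLUT1 array and 335 on the control array. Of the 43 tissue-restricted probe sets, 6 were brighter than Mlxipl on the GLUT1 array and 5 on the control array. Mlxip, the gene of MondoA, was not among the 8 members and was read at 456 on the GLUT1 array and 504 on the control array. Those values passed the limit on both arrays but stayed below the brightness filter for counting a gene as measured, a mean intensity of 507.2. The log2 ratio of Mlxip, GLUT1 over control, was -0.14, within its local spread (defined below) of 0.23. Of the tissue-restricted probe sets, that of Ins1 was brighter than Mlxip on both arrays, at 651 on the GLUT1 array and 735 on the control array.

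Both alpha-arrestin targets were dim. Txnip was read by 1 probe set, 1371131_a_at, at 353 on the GLUT1 array and 349 on the control array, with 41.3% of all probe sets dimmer on the GLUT1 array and 41.0% on the control array. On each array 5 tissue-restricted probe sets were brighter than Txnip, so its signal could not be told from that of unused genes. Arrdc4 was read at 79 on the GLUT1 array and 133 on the control array. Among the tissue-restricted probe sets, 29 on the GLUT1 array and 22 on the control array were brighter than Arrdc4, and both of its values lay under the floor of 175 below which no ratio was formed.

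The transcription factor targets were bright. Klf10, a Krüppel-like repressor first described as an early TGF-beta-inducible gene, was read at 1327 on the GLUT1 array and 1435 on the control array. Bhlhe40, a repressor that also acts in the circadian clock, was read at 1404 on the GLUT1 array and 1233 on the control array. No tissue-restricted probe set reached either gene. Both are known to answer to many signals besides glucose.

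The enzyme targets were read by 2 probe sets each, which did not match one another. Gpd1 encodes the cytosolic glycerol 3-phosphate dehydrogenase, which links glycolysis to glycerolipids. Its probe set 1371363_at gave 629 on the GLUT1 array and 727 on the control array, above the limit, although 1 tissue-restricted probe set, that of Ins1, was brighter on each. Its other probe set, 1369560_at, gave 37 on the GLUT1 array and 52 on the control array, below the floor on both. Pklr, the pyruvate kinase of liver and red cells, was dim in probe set 1368651_at, at 358 on the GLUT1 array and 317 on the control array. In 1387263_at it was read at 428 on the GLUT1 array, just over the limit there, and at 225 on the control array, well under it.

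**Figure D1:**
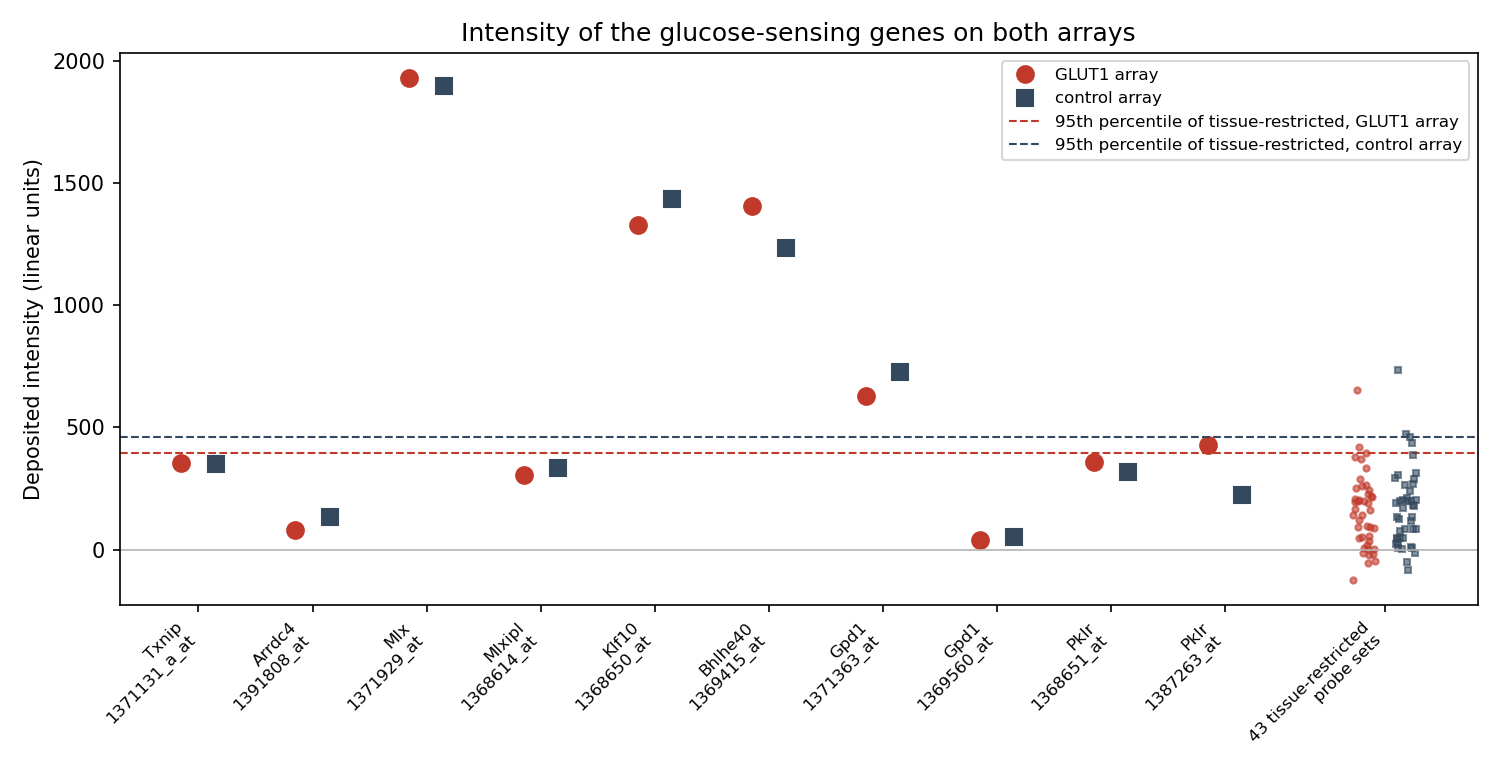
Deposited intensity (linear units) of the 10 member probe sets, with the GLUT1 array as circles and the control array as squares, beside the 43 probe sets of tissue-restricted genes. Dashed lines mark the 95th percentile of the tissue-restricted probe sets on each array, 394.2 for GLUT1 and 458.5 for control, and the probe sets of Mlx, Klf10 and Bhlhe40 and the brighter one of Gpd1 lie above both.

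The second question was whether these genes were higher with GLUT1. None of the 7 members with a ratio, each taken by its brightest probe set, differed by 2-fold. Arrdc4, at the floor on both arrays, could not be counted. Of all 10411 genes 0.0864% differed by 2-fold without a brightness filter, with genes at the floor on both arrays taken as unchanged. Among the 4 members above the filter the count was also 0, where 0.0164% of 6114 measured genes passed. The 4 measured members split evenly, with Bhlhe40 and Mlx above 0 and Klf10 and Gpd1 below, and their median log2 ratio, GLUT1 over control, was -0.04, beside 0.01 over all measured genes. A coordinated increase of sensors and targets was not seen in these arrays. A background of so few calls leaves little for a count of 7 genes to show either way.

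With 1 array per group, the only error at hand was the local spread, the scaled median absolute deviation of the log2 ratios of the probe set and of the 250 next to it in brightness on either side. It mixes array noise with real differences. For Txnip the log2 ratio was 0.02, or 1.01-fold, against a local spread of 0.27. The values of Txnip on the arrays were 4 intensity units apart, and at this signal a difference smaller than the local spread was not detectable. For Mlxipl the log2 ratio was -0.13 with a local spread of 0.27, and for Mlx it was 0.03 with a local spread of 0.11. All 3 lay within 1 local spread of 0.

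Among the measured targets, Bhlhe40 had a log2 ratio of 0.19, or 1.14-fold, which was 1.32 times its local spread of 0.14. Klf10 had a log2 ratio of -0.11, or 0.926-fold, and lay within its local spread of 0.13. Gpd1 had a log2 ratio of -0.21, or 0.866-fold, in its brighter probe set, -1.18 times the local spread of 0.18. The targets that could be measured thus pointed in different directions, each by less than 1.5 times the local spread.

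Pklr gave the member value farthest from 0, in a probe set below the brightness filter. In 1387263_at the log2 ratio was 0.93, or 1.90-fold, 3.27 times a local spread of 0.28. Of the 8 member probe sets with a ratio, it alone was past 1.5-fold. Of the 12783 probe sets with a single gene 1.5% were, with those at the floor on both arrays taken as unchanged. The other probe set of Pklr, 1368651_at, had a log2 ratio of 0.18, within its local spread of 0.27. Both pointed up but differed about the size, and the GLUT1 value of neither was far from the limit set by unused genes. With the floor at the 40th percentile the ratio of 1387263_at was 0.36, since the control value then sits at the floor.

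**Figure D2:**
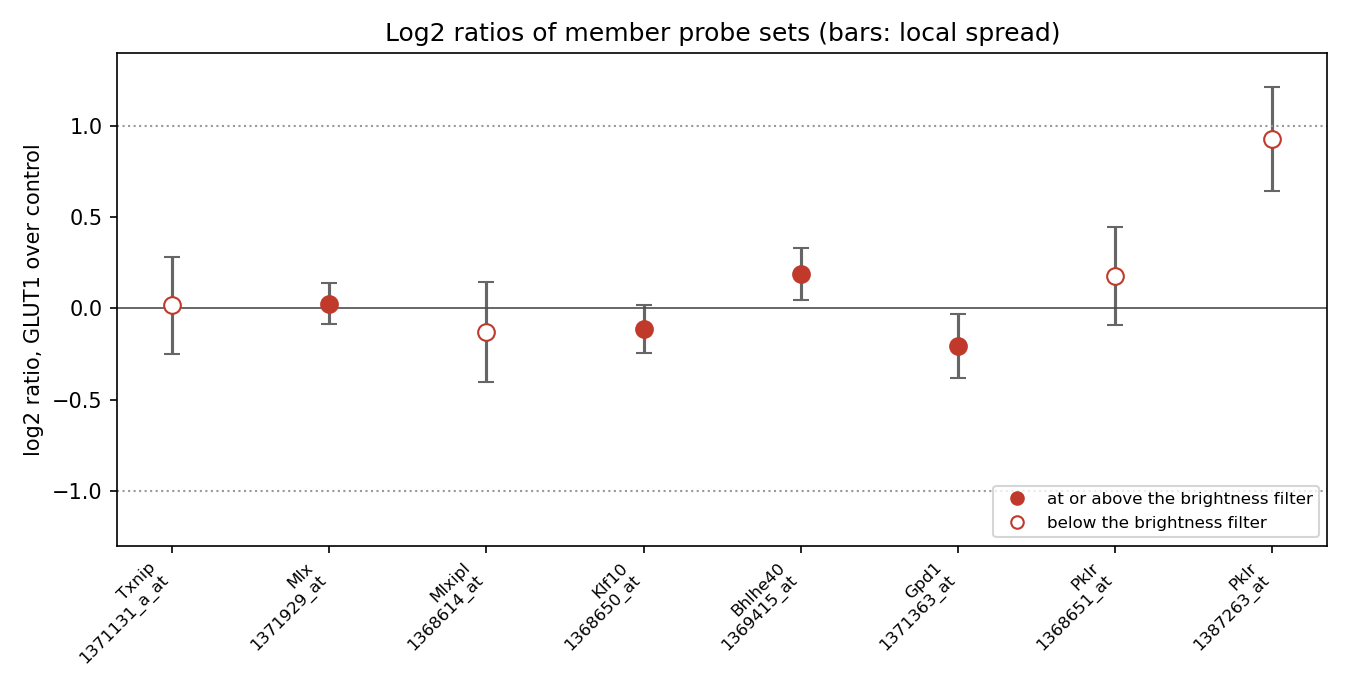
Log2 ratio, GLUT1 over control, of the 8 member probe sets that had a ratio, with bars of 1 local spread either way, filled points for probe sets at or above the brightness filter and open points below it. Dotted lines mark 2-fold, and the bars of Txnip, Mlx, Mlxipl, Klf10 and 1 probe set of Pklr cross 0.

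**Figure D3:**
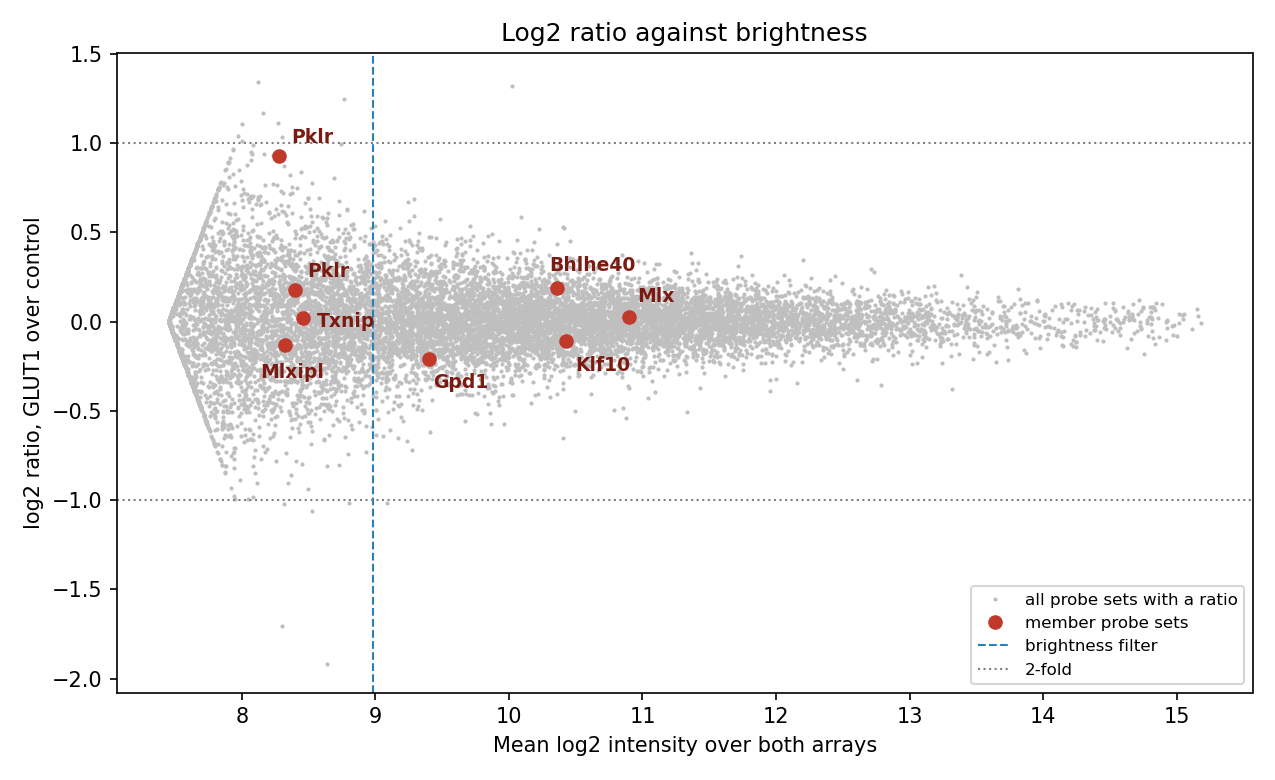
Log2 ratio, GLUT1 over control, against mean log2 intensity for all probe sets with a ratio (grey) and the member probe sets (red), with the brightness filter as a dashed line and 2-fold as dotted lines. The spread widens toward dim probe sets, where Txnip, Mlxipl and both Pklr probe sets lie.

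Other genes of the pathway were taken from lists drawn up by function. Of 16 Mondo and Max network factors 10 were measured, with 6 above and 4 below 0, none at 2-fold, and a median log2 ratio of 0.02. Over all 6114 measured genes 3189 lay above and 2925 below 0. Max, the shared partner of the Myc and Mxd proteins, was bright at 3736 on the GLUT1 array and 3838 on the control array, a log2 ratio of -0.04, while a dim second probe set gave -0.67. Myc, a growth factor-responsive activator that binds the same E-box, was read at 991 on the GLUT1 array and 884 on the control array, a log2 ratio of 0.17. Farthest from 0 among the measured factors were Mxd3, a Max-binding repressor, at a log2 ratio of 0.31, and Usf2, an E-box factor, at 0.24. A second, dimmer probe set of Usf2 gave 0.28. Below the filter, and named after its value was seen, Mycn, a relative of Myc, was read at 536 on the GLUT1 array and 336 on the control array, a log2 ratio of 0.68 (2.90 times the local spread).

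The thioredoxin system, which Txnip restrains, was bright and differed little. Txn1, encoding cytosolic thioredoxin, was read at 26378 on the GLUT1 array and 26219 on the control array, a log2 ratio of 0.01. Txnrd1, the cytosolic thioredoxin reductase, was read at 10196 on the GLUT1 array and 9669 on the control array, a log2 ratio of 0.08, and its second probe set gave -0.10. Of 14 listed genes of this system and of Txnip's partners 9 were measured, with 5 above and 4 below 0 and a median log2 ratio of 0.01. Prkaa1, a catalytic subunit of the AMP-activated kinase, was farthest from 0 among the measured genes at -0.23, with a second probe set at 0.11. Txnrd2, the mitochondrial reductase, followed at -0.14. The alpha-arrestin genes Arrdc1 and Arrdc3, named after their values were seen, were measured, at log2 ratios of -0.08 and -0.05.

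Of 21 further targets of ChREBP or MondoA 12 were measured, with 8 above and 4 below 0, none at 2-fold, and a median log2 ratio of 0.05. Fasn, the fatty acid synthase, was read at 6160 on the GLUT1 array and 5696 on the control array, a log2 ratio of 0.11, and its second probe set gave -0.09. Farthest from 0 among the measured targets were Scd2, a stearoyl-CoA desaturase, at a log2 ratio of -0.16, and Elovl6, a fatty acid elongase, at 0.13. A second measured probe set of Scd2 gave -0.28, or -2.42 times the local spread. Below the filter, and named after their values were seen, Acacb, an acetyl-CoA carboxylase, had a log2 ratio of -0.40, at 180 on the GLUT1 array and 237 on the control array, and Fgf21, a hormone of the liver, 0.19. Both genes lay under the limit set by unused genes on both arrays. Each ratio was within its local spread, 0.51 for Acacb and 0.31 for Fgf21. The liver-restricted targets on the list were dim, for example Gckr, the glucokinase regulator, at 154 on the GLUT1 array and 188 on the control array, and Slc2a2, encoding the transporter GLUT2, at 39 on the GLUT1 array and 12 on the control array, both named after their values were seen.

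Of 9 genes that share a family or a reaction with a member 3 were measured, and all 3 lay above 0, with a median log2 ratio of 0.08. Of all measured genes 52.2% lay above 0. Gpd2 encodes the mitochondrial glycerol 3-phosphate dehydrogenase, the partner of Gpd1 in the glycerol phosphate shuttle. It was read at 825 on the GLUT1 array and 597 on the control array, a log2 ratio of 0.47, which is 2.66 times its local spread. Its second probe set, below the filter at 332 on the GLUT1 array and 239 on the control array, gave 0.48, or 1.54 times its local spread. Both of those values lay under the limit set by unused genes, so this probe set adds little to the first. Gpd1 lay on the other side of 0, at -1.18 times the local spread in its brighter probe set. Klf4, a Krüppel-like factor of smooth muscle dedifferentiation, had a log2 ratio of 0.08, within its local spread of 0.15. Klf6, named after its value was seen, had a log2 ratio of 0.06, within its local spread of 0.17. A second, dimmer probe set of Klf6 gave -0.04. Pkm and Gpd1l were not read by a usable probe set and are not analysed here.

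**Figure D4:**
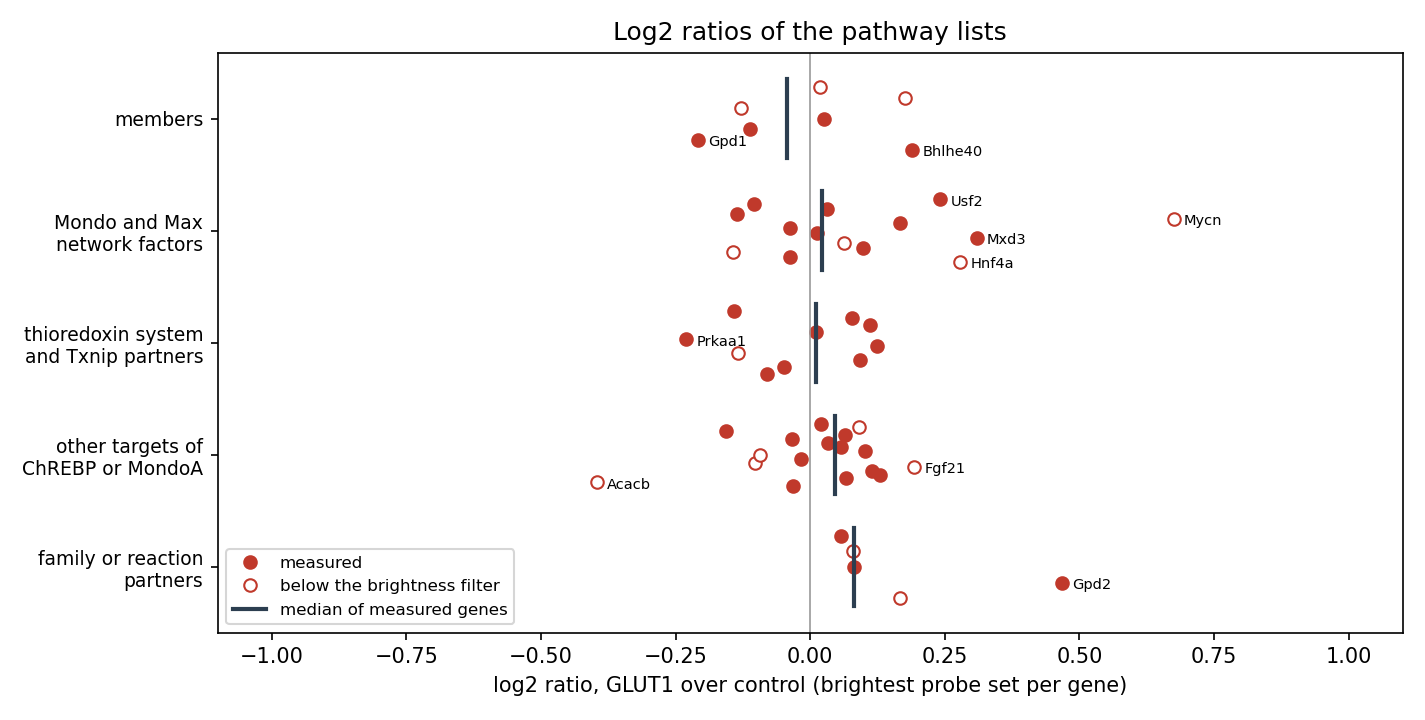
Log2 ratio, GLUT1 over control, of each gene's brightest probe set in the member list and the 4 pathway lists, with measured genes filled, genes below the brightness filter open, and the median of the measured genes as a vertical bar. Genes at the floor on both arrays are left out, and the medians run from -0.04 for the members to 0.08 for the family and reaction partners.

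The identity of the cells was looked at with the same arrays, and the rat gene of GLUT1 was read as well. Of 6 smooth muscle markers 5 passed the limit on both arrays, the exception being Myh11, a myosin heavy chain of mature smooth muscle, read at 228 on the GLUT1 array and 227 on the control array. No endothelial, leukocyte, adipocyte or hepatocyte marker on the lists did, of 3, 4, 2 and 3 genes on the array. Summed intensities of these lists ranged from 268 to 831 on the GLUT1 array and from 154 to 971 on the control array. Of 3 skeletal muscle markers 1 passed, Acta1, the skeletal actin. The rat probe set of Slc2a1 was read at 3121 on the GLUT1 array and 2902 on the control array, a log2 ratio of 0.11. The vector carried human cDNA, so this probe set is no check of the overexpression.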

How the data were processed

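RNA from 2 pooled samples of A7r5 cells, 1 GLUT1 and 1 control, was labelled with biotin and read on 1 array each, per the labels' protocols. The groups come from the sample titles and source names, while the description label names GLUT1 over-expression for both samples, and no probe set checks which array is which. The deposited table holds linear intensities in whole numbers, which the authors had made nearly equal in distribution (both medians 508). The sources used here name no software, background correction or summary method. The number of arrays limits the precision. Values made equal in distribution cannot show a change in total mRNA.

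With Python 3.11.15 and pandas 2.3.3, each probe set took its gene from the platform annotation, and symbols were updated by gene ID (12748 of 12783 single-gene probe sets matched). The GLUT1 array was scaled to a median log2 ratio of 0 over brighter probe sets, and log2 was taken after raising intensities under the 25th percentile, 175, to that value as a floor. Printed intensities are as deposited. A gene was measured when its brightest probe set reached the median mean log2 value, 8.99. Calls were by size, at 2-fold, with no p-value. The steps were tested on simulated data. Named genes were the members, the 2 measured genes of each list farthest from 0, Slc2a1, and Pkm, Gpd2, Gpd1l, Mlxip, Txn1, Txnrd1, Max, Myc and Fasn. Members and lists were chosen with earlier results of these data known. Alternatives covered scaling, floor, filter, thresholds, the brightness limit and averaged probe sets.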

Additional observations from a re-analysis of the deposited data

How the results depend on the processing

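No paired analysis was possible because there is a single array per group, and no replicate could be left out. The deposited values were already equal in distribution, so leaving out the scaling or applying quantile normalization says little about stability. Across 50 values of member probe sets under alternatives, the sign differed from the reported one in 0. Another floor, or an added constant in its place, acts alike on both arrays and cannot reverse which is higher. That count was therefore all but fixed in advance and says nothing about how stable the direction is. A ratio at the floor on both arrays counted as no sign. A value was said to move when it shifted by more than the local spread. The 2 probe sets at the floor on both arrays had no local spread, and the largest one of any probe set was used for them. By these limits 2 of the 50 values moved. These were the Pklr value given with the results and Arrdc4, which had a log2 ratio of -0.75 with the floor at the 10th percentile, where both of its values are dimmer than many unused probe sets. The log2 ratio of Txnip ranged from 0.015 to 0.018 and that of Bhlhe40 from 0.18 to 0.19. At 1.5-fold the count of member probe sets past the threshold was 1 in place of 0. The number of members brighter than the tissue-restricted genes was 3 in place of 4 when the limit was the highest such probe set, which Gpd1 does not reach. A filter at the 75th percentile gave medians of 0.0254 for the members, with Mlx alone left, -0.0375 for the Mondo and Max network factors and 0.0778 for the thioredoxin list, and left no gene among the family and reaction partners. The other 36 of 39 list medians moved by less than the spread used for them, the typical local spread over the square root of the number of genes. Low signal limits what can be said of Txnip, Arrdc4, Mlxipl and Pklr, since a change in a transcript below detection would not be seen.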
